A study of Mus musculus with 6 samples.

Results

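Adipokines are proteins that fat cells secrete, and white fat cells also carry a set of proteins that coat, fuse and empty their lipid droplet. The genes described here are 9 of this kind, namely adiponectin (Adipoq), leptin (Lep), resistin (Retn), adipsin (Cfd), perilipin 1 (Plin1), Cidec, hormone-sensitive lipase (Lipe), the fatty acid binding protein Fabp4 and carbonic anhydrase 3 (Car3). They were chosen by name, as all noncontrol probes of the array that carry one of these gene names. All 9 were found among 28786 gene names, with 14 probes in 23 spots of 41174 noncontrol probes. Plin1 carried the older name Plin on the array and was matched through its RefSeq accession, and the other 8 were matched by name.

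RNA was measured in whole hearts of male C57BL/6 mice, a common inbred strain, with 3 sham-operated and 3 adrenalectomized animals and 1 array for each heart. Adrenalectomy takes out both adrenal glands, the main source of corticosterone and aldosterone, and none of the groups carried a transgene. Surgery was at 1 month of age and the hearts were taken 6 months afterwards, although another label gives the animals as 6 months old. No hormone replacement or drug is named for either group. Slide 1, which was also scan batch 1, carried every sham array together with adrenalectomized replicate 1. Slide 2 carried adrenalectomized replicates 2 and 3 and no sham array.

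White adipocytes store triglyceride in a single large droplet. Perilipin 1 coats that droplet and controls the access of lipases, Cidec drives the growth of large droplets, and hormone-sensitive lipase cuts diglycerides during lipolysis. Adiponectin and leptin act at a distance on metabolism and appetite, and adipsin is complement factor D. In the heart these transcripts are known mainly from fat on the surface of the organ and around its vessels, while Fabp4 is also made by capillary endothelium.

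The probes below are shown because the results turn on what they read: the adiponectin probe, which serves as the reference in a later comparison, and the probe pairs of Retn, Lipe and Fabp4, which test the same gene at separate places. Capitals in the Retn probes mark the 22 bases that both share, so those probes are not independent readings. All are 60 bases long, written 5′ to 3′ on the transcript strand, with positions from the design of the array on the mm7 mouse assembly.
Adipoq, chr16:22816125-22816184, plus strand: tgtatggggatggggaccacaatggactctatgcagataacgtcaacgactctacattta
Retn, main probe, chr8:3618519-3619340, plus strand: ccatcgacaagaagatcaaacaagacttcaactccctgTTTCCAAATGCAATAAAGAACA
Retn, other probe, chr8:3618557-3619378, plus strand: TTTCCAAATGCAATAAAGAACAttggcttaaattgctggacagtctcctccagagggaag
Lipe, main probe, chr7:22170761-22173014, minus strand: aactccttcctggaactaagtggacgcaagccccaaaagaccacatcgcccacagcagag
Lipe, other probe, chr7:22170615-22170674, minus strand: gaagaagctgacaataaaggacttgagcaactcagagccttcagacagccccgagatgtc
Fabp4, main probe, chr3:10212718-10213447, minus strand: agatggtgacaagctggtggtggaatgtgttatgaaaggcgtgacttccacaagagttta
Fabp4, other probe, chr3:10216627-10216686, minus strand: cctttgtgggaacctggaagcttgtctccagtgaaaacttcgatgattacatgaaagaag

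Of the 14 probes, 4 cover more genome than their own length (822 bases for each Retn probe, 2254 for the main Lipe probe and 730 for the main Fabp4 probe). The probe of Plin1 lies at chr7:75590467-75590526 on the minus strand, that of Cidec at chr6:113585627-113585686 on the minus strand, that of Cfd at chr10:79672573-79672632 on the plus strand and that of Lep at chr6:29005380-29005439 on the plus strand. The main Car3 probe lies at chr3:14893376-14893435 on the plus strand. Exon and intron annotation of the mm7 assembly was not used here.

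Between 57.7% and 60.5% of noncontrol spots were well above background on the arrays of slide 1. The share was higher on slide 2, at 66.8% and 63.2% on adrenalectomized arrays 2 and 3. Pearson's r between the log2 values of any pair of arrays ran from 0.982 to 0.991 (across genes, which are not independent replicates). The median standard error (SE) of a difference between groups was 0.14 on the log2 scale, and the number of arrays limits the precision. Levels below are log2 signals with the 75th percentile of each array set to 0, so a step of 1 is a doubling. They compare arrays for 1 probe and do not compare probes. Cardiomyocyte markers were read beside the tissue label: 11 of 12 were well above background on all 6 arrays by the probe used. The exception was Myoz2, whose probe had no level on sham array 1, where its spot was an outlier. Troponin I of the heart, Tnni3, stood between 9.11 and 9.60 on every array.

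Adiponectin RNA varied widely from heart to heart. The level of Adipoq was 0.22, 2.53 and 1.99 on sham arrays 1 to 3 and 1.77, 3.81 and 3.34 on adrenalectomized arrays 1 to 3. Sham replicate 1 stood lowest and adrenalectomized replicates 2 and 3 highest, while adrenalectomized replicate 1 lay inside the sham range, so the groups overlapped. The sham hearts alone spanned a 4.97-fold range and all 6 hearts a 12.0-fold range. The group means were 1.58 ± 1.21 (SD, n = 3) and 2.97 ± 1.07 (SD, n = 3). The difference of 1.39 (SE 0.71, 95% interval -0.29 to 3.08), a 2.63-fold higher mean after adrenalectomy, did not pass the test (limma, adjusted p = 0.480 over 16949 genes).

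Adipsin, the serine protease that starts the alternative complement pathway, followed a like course. The level of Cfd was 2.00, 4.88 and 3.30 in the sham hearts and 3.60, 5.34 and 5.26 in the adrenalectomized hearts. Sham replicate 2 was exceeded by 2 hearts only and lay above adrenalectomized replicate 1, so these groups overlapped too. The difference was 1.34 (SE 0.77, 95% interval -0.48 to 3.16; limma adjusted p = 0.525), within a 10.1-fold range over the 6 hearts.

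Resistin, a small cysteine-rich hormone of mouse fat, also overlapped between the groups. The main Retn probe read -3.99, -1.87 and -3.11 in the sham hearts and -3.38, -0.96 and -1.87 in the adrenalectomized hearts. Adrenalectomized replicate 1 lay below 2 of the 3 sham hearts. The difference of 0.92 (SE 0.72, 95% interval -0.78 to 2.62) did not pass the test (limma adjusted p = 0.633), nor did 1.41 with array weights (limma adjusted p = 0.352). The other Retn probe, with which it shares the bases in capitals above, gave a difference of 0.88 and was not well above background on sham array 1.

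Leptin, the satiety hormone, was not well above background in every heart. Its probe sits in 10 spots, of which 0, 10 and 10 were well above background on sham arrays 1 to 3 and 4, 10 and 9 on adrenalectomized arrays 1 to 3. The level of Lep was -5.51, -3.28 and -2.72 in the sham hearts and -4.31, -2.25 and -4.16 in the adrenalectomized hearts. Sham replicate 3 was thus the second highest of the 6, and adrenalectomized replicate 3, high for the other adipokines, was exceeded by all sham hearts but replicate 1. Lep was well above background on 4 of 6 arrays and on all 3 arrays of neither group, so it was not tested with the rest. With no filter on dim probes the difference was 0.26 (SE 0.89, limma adjusted p = 0.924), it was -0.57 without sham replicate 1 (limma adjusted p = 0.830), and it was 0.63 without adrenalectomized replicate 1 (limma adjusted p = 0.874).

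**Figure D1:**
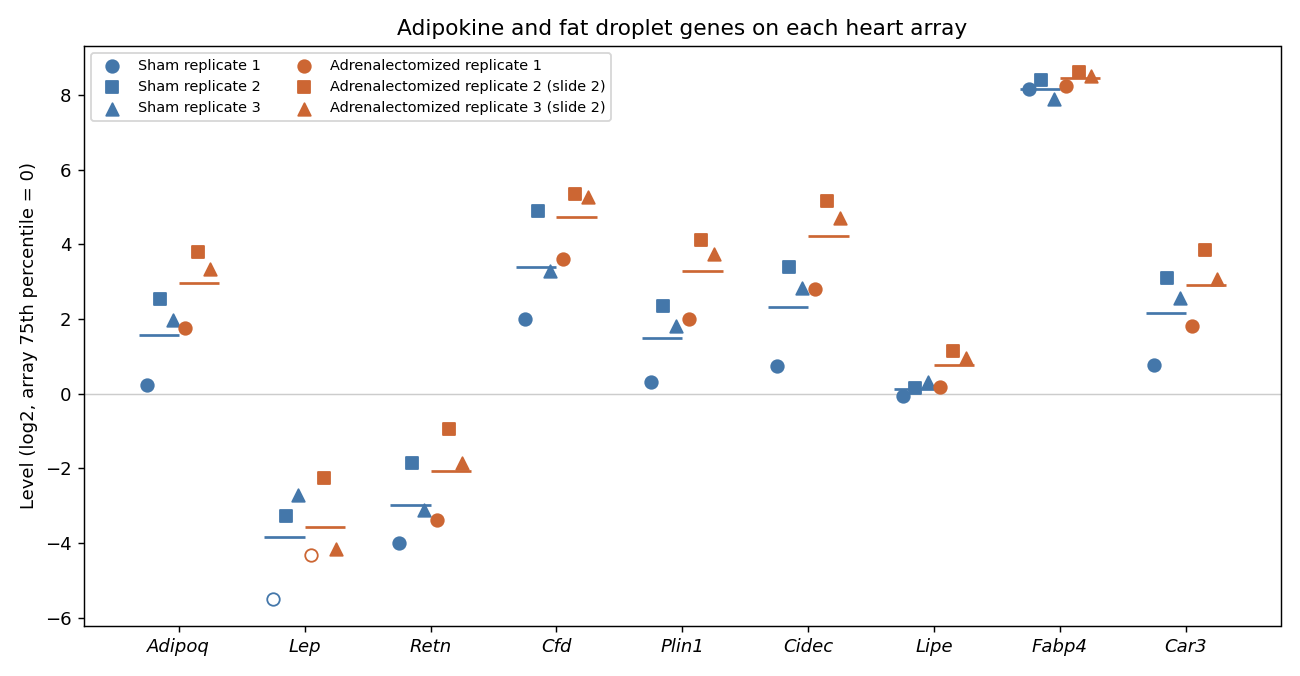
Level of each of the 9 genes on each array, in log2 units with the 75th percentile of the array at 0, for 3 sham (blue) and 3 adrenalectomized (orange) hearts. Circles, squares and triangles are replicates 1, 2 and 3, bars are group means, and open symbols mark arrays on which most spots of the probe were not well above background. Heights of different genes are not comparable. Sham replicate 1 is lowest in all genes but Fabp4, and adrenalectomized replicate 2 is highest in all 9.

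The droplet coat genes showed the largest fitted differences among the members. The level of Plin1 was 0.33, 2.36 and 1.81 in the sham hearts and 1.99, 4.13 and 3.74 in the adrenalectomized hearts. Adrenalectomized replicates 2 and 3 lay above every sham heart and replicate 1 lay between sham replicates 3 and 2. The Plin1 difference was 1.79 (SE 0.68, 95% interval 0.17 to 3.41), or 3.46-fold. Its limma p was 0.0348 unadjusted and 0.375 adjusted, so it did not pass the threshold of 0.05, with a 14.0-fold range over the 6 hearts.

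Cidec, which enlarges droplets by moving lipid from one to another, read 0.75, 3.40 and 2.83 in the sham hearts and 2.81, 5.16 and 4.70 in the adrenalectomized hearts. It had the widest range of the members tested over the 6 hearts, 21.2-fold. Among the sham hearts alone its range was 6.25-fold, and that of Cfd, at 7.38-fold, was wider. The Cidec difference was 1.90 (SE 0.82, 95% interval -0.05 to 3.84), or 3.72-fold, with a limma adjusted p of 0.417.

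Hormone-sensitive lipase varied within a far narrower span. The main Lipe probe read -0.07, 0.16 and 0.32 in the sham hearts and 0.18, 1.14 and 0.97 in the adrenalectomized hearts. Its difference was 0.62 (SE 0.26, 95% interval 0.02 to 1.23), or 1.54-fold, with a limma p-value of 0.0455 before and an adjusted p of 0.401 after adjustment. The other Lipe probe read -0.43, 0.01 and 0.01 against 0.03, 0.91 and 0.75, a difference of 0.70. There the groups did not overlap, by a margin of adrenalectomized replicate 1 over the sham hearts that was small beside the spread among the sham hearts, and the limma adjusted p over 23990 probes was 0.306. Lipe is also expressed in heart muscle, as background.

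Fabp4, a carrier of fatty acids in adipocytes and endothelium, varied least. Its main probe read 8.17, 8.41 and 7.89 in the sham hearts and 8.24, 8.61 and 8.51 in the adrenalectomized hearts, and here sham replicate 3, not replicate 1, was lowest. The difference was 0.30 (SE 0.17, 95% interval -0.10 to 0.70; limma adjusted p = 0.518), and it was 0.51 with quantile normalization (limma adjusted p = 0.251) and 0.57 under normexp (limma adjusted p = 0.087). A Fabp4 probe in another part of the gene read 3.03, 3.17 and 2.85 against 3.45, 3.93 and 3.60, with no overlap between groups. That difference of 0.65 (SE 0.16) had a limma adjusted p of 0.195 over all probes, and the third Fabp4 probe gave 0.20. The 11 endothelial markers tested had a median difference of -0.06, and 0 of them passed with an unadjusted p under 0.05. Of all genes, 6.27% were higher and 5.99% lower at that p.

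Carbonic anhydrase 3, an abundant enzyme of fat and slow muscle, ran with the adipokines from heart to heart. The main Car3 probe read 0.78, 3.11 and 2.57 in the sham hearts and 1.81, 3.84 and 3.07 in the adrenalectomized hearts. Sham replicate 2 lay above adrenalectomized replicate 3. The difference was 0.76 (SE 0.70, 95% interval -0.91 to 2.42; limma adjusted p = 0.692), and 1.41 with array weights (limma adjusted p = 0.358). The other Car3 probe, drawn from a cDNA clone, gave 0.96 and was not well above background on sham array 1.

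No member passed the test. Of the 8 genes tested, 8 had a fitted difference above 0, where 56.6% of all genes did, although that of Retn turned to -0.22 under normexp background correction. At the same time 0 of 8 had a limma adjusted p under 0.05 in either direction, where 0.0413% of all genes did (0.0295% higher and 0.0118% lower). At an unadjusted p under 0.05, 2 of 8 were higher (Plin1 and Lipe), against 6.27% of all genes, and 0 were lower, against 5.99%. Under normexp Plin1 passed, at 1.94 (limma adjusted p = 0.0468), in a fit that called 1220 genes higher and 4731 lower in place of 5 and 2. The groups overlapped in all 8, while 10.3% of all genes had every adrenalectomized heart above every sham heart and 7.89% had every one below. With every probe as its own feature, 4 of 13 member probes were higher at an unadjusted limma p under 0.05 against 6.11% of all probes, 2 were higher without overlap against 10.2%, and 0 passed the adjusted threshold against 0.00417%. The median difference was 1.13 over the members and 0.03 over all genes. The members vary together from heart to heart, so these counts are not 8 separate observations. An exact two-sided permutation test of 3 hearts against 3 cannot go below 0.1, and its p ran from 0.2 for Cfd, Plin1, Lipe and Fabp4, through 0.3 for Adipoq and Cidec and 0.5 for Retn, to 0.6 for Car3. In whole-heart RNA, a different number of fat cells in a sample and a different amount of these RNAs per fat cell cannot be told apart. Whether the RNAs came from white or from brown fat cells was not tested, and brown fat markers are read further below.

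The order of the hearts was nearly shared. Sham replicate 1 was lowest in 7 of the 8 genes, adrenalectomized replicate 2 was highest in 8 of 8, and adrenalectomized replicate 3 was second highest in 6. Both extremes fell on those same hearts in 7 of 8 members, where 2.79% of all genes had that lowest and highest heart. The range over the 6 hearts was at least 2 log2 units in 6 of 8 members, all but Lipe and Fabp4, against 2.74% of all genes. The median range was 3.20 in the members and 0.50 over all genes. Leaving out sham replicate 1 brought the difference of Adipoq to 0.71, of Cfd to 0.64, of Cidec to 1.11, of Plin1 to 1.20, of Retn to 0.42 and of Car3 to 0.07. Without adrenalectomized replicate 1 it was 1.99 for Adipoq, 1.91 for Cfd, 2.60 for Cidec, 2.44 for Plin1, 1.58 for Retn, 1.30 for Car3 and 0.92 for Lipe, and without adrenalectomized replicate 2 Retn came to 0.36 and Car3 to 0.29. Without sham replicate 2, Cfd came to 2.09, Retn to 1.48 and Car3 to 1.23, and without sham replicate 3 Fabp4 came to 0.16.

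Slide and group overlapped. Both arrays of slide 2 lay above all 4 arrays of slide 1 in 6 of 8 members, all but Retn and Car3, against 7.59% of all genes. Within slide 1, adrenalectomized replicate 1 lay inside the range of the 3 sham hearts in 8 of 8 members. The share of all genes with that placing was not computed. The members vary together, and sham replicate 1, lowest in 7 of the 8, widens their sham range. The count is therefore no result about the members. Set against the sham mean of its own slide, it differed by 0.19 for Adipoq, 0.20 for Cfd, 0.49 for Plin1, 0.49 for Cidec, 0.04 for Lipe and 0.08 for Fabp4. It was lower for Retn, by -0.39, and for Car3, by -0.34. The median of these 8 values was 0.14. The part of the slide in the difference over all arrays was not tested beyond these values, since slide 2 holds adrenalectomized hearts only.

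**Figure D2:**
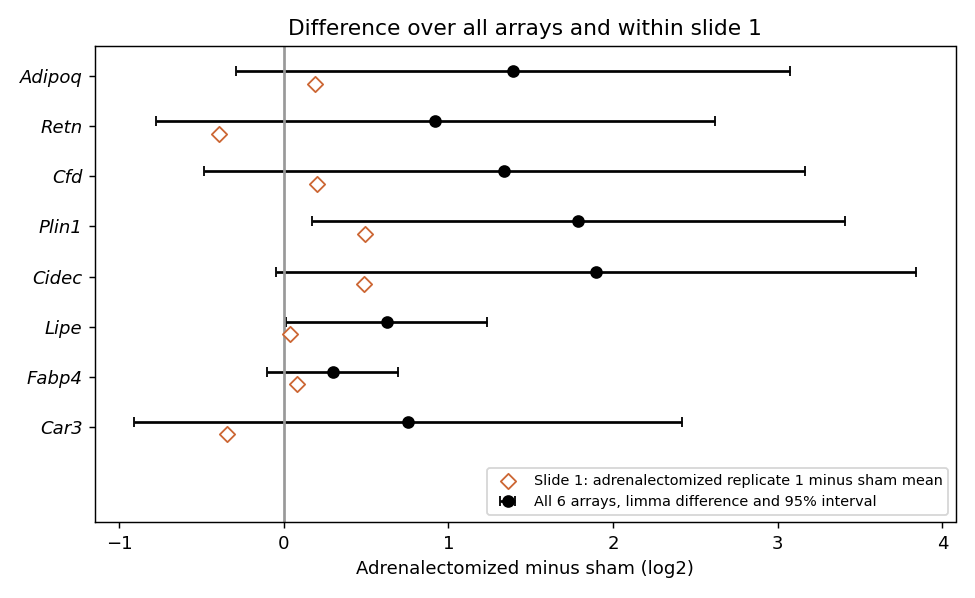
Difference between adrenalectomized and sham hearts (log2) for the 8 members tested. Filled points with bars are limma estimates over 6 arrays with 95% intervals, and open diamonds are adrenalectomized replicate 1 minus the mean of the 3 sham hearts on its slide. All 8 filled points lie above 0, while the diamonds run from -0.39 (Retn) to 0.49 (Plin1 and Cidec).

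Much of the spread among hearts was common to these genes, and levels were therefore also read relative to Adipoq on the same array. This comparison was chosen after the values were seen, and only its changes between arrays carry meaning. Relative to Adipoq, Plin1 stood at 0.11, -0.18 and -0.17 in the sham hearts and at 0.22, 0.32 and 0.40 in the adrenalectomized hearts, a difference of 0.40. The groups no longer overlapped, and the SD among sham hearts was 0.16 in place of 1.05. Cidec relative to Adipoq read 0.53, 0.86 and 0.84 against 1.04, 1.35 and 1.36, a difference of 0.50, again without overlap and with a sham SD of 0.19 in place of 1.39. The 2 droplet genes were thus both higher per unit of adiponectin RNA in every adrenalectomized heart, including the heart on slide 1. Both are set against the same Adipoq reading, so they are not separate observations. Cidec also had a wider range than Adipoq over the 6 hearts (4.40 against 3.59 log2 units). Within each group its relative level was lowest in replicate 1, where Adipoq was lowest. The part of this in the Cidec difference was not tested.

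Car3 differed the opposite way relative to Adipoq. It read 0.56, 0.57 and 0.58 in the sham hearts and 0.04, 0.03 and -0.27 in the adrenalectomized hearts. The SD of the sham hearts was 0.0084, against 1.22 for Car3 itself, and it was 0.076 under normexp. With the other Car3 probe it was 0.17, which includes the dim signal on sham array 1. All 3 adrenalectomized hearts lay lower, by 0.64 on average. The other Car3 probe, whose signal on sham array 1 was not well above background and is no measured level there, read -4.53 and -4.65 on sham arrays 2 and 3 and -4.96, -5.07 and -4.75 in the adrenalectomized hearts. Each of the Plin1, Cidec and Car3 differences had an exact two-sided permutation p of 0.1, the smallest that 3 against 3 allows, and a Benjamini-Hochberg adjusted value of 0.233 over the 7 comparisons of this kind, so none passed.

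With the 75th percentile scaling, the remaining members overlapped relative to Adipoq. The difference was -0.05 for Cfd (exact permutation p = 1), -0.47 for Retn (exact permutation p = 0.2, adjusted 0.350; -1.74 and without overlap under normexp), -0.77 for Lipe (exact permutation p = 0.4, adjusted 0.467) and -1.10 for Fabp4 (exact permutation p = 0.3, adjusted 0.420). Lipe and Fabp4 vary less than Adipoq between hearts, so their level relative to it was lowest in adrenalectomized replicate 2, where Adipoq was highest. Over all 16948 other genes, 0.0531% (9 genes) were higher without overlap relative to Adipoq and 4.71% were lower. Adipoq itself spanned a 12.0-fold range, highest in adrenalectomized replicates 2 and 3. A gene that varies little can therefore hardly read higher relative to it. These shares follow largely from the choice of reference and are no yardstick for Plin1, Cidec or Car3.

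**Figure D3:**
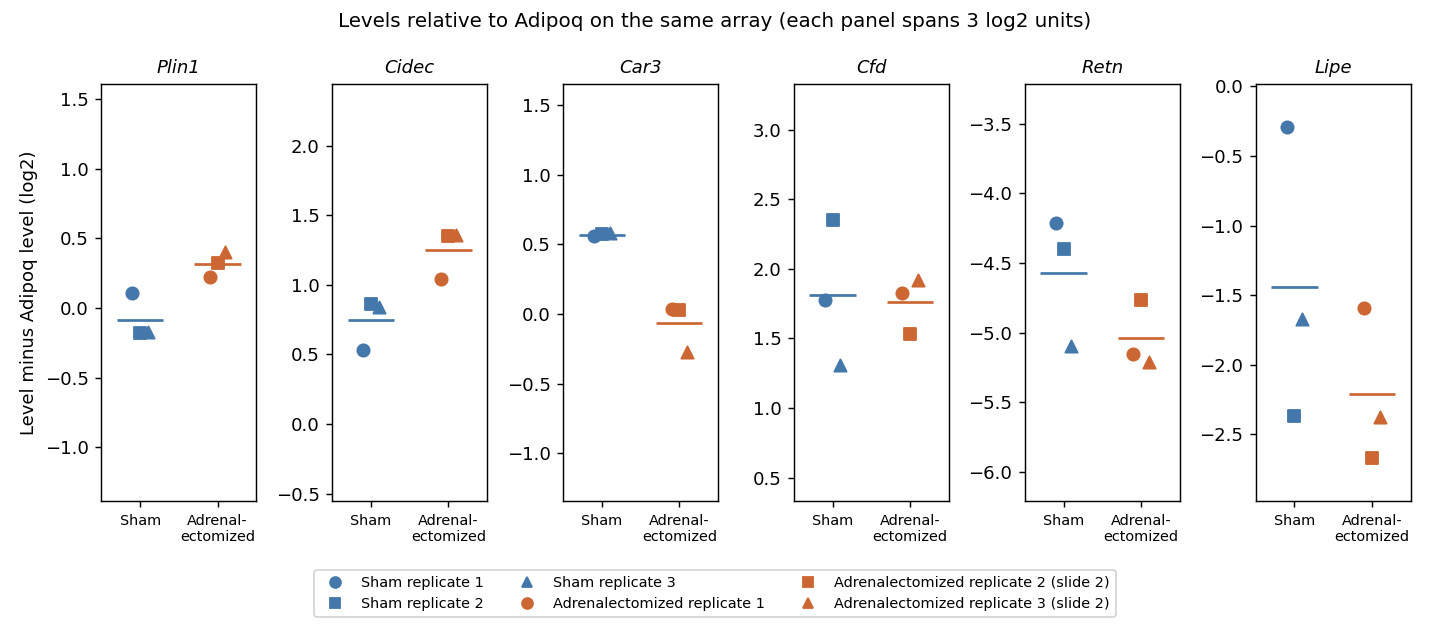
Level of 6 members minus the level of Adipoq on the same array (log2), for sham (blue) and adrenalectomized (orange) hearts, with bars at group means and replicates 1, 2 and 3 as circles, squares and triangles. Axes differ in position but not in span. Plin1 and Cidec are higher and Car3 is lower in all 3 adrenalectomized hearts, while Cfd, Retn and Lipe overlap.

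The genes whose pattern over the 6 arrays was nearest to that of Adipoq were found by the root mean square distance between centred log2 levels, among 16883 genes with values on all 6 arrays. Plin1 was the nearest of all, at 0.226. Cidec ranked 6 (0.293), Cfd 11 (0.324), Car3 15 (0.334) and Retn 22 (0.383), while Lipe ranked 203 (0.789) and Fabp4 883 (1.01). Among 12944 genes with a symbol outside the members, the nearest was Pck1, which makes glycerol phosphate precursors in fat (0.229), followed by Lgals12, a galectin of fat cells (0.246), and Klb, the co-receptor of fibroblast growth factor 21 (0.261). Acp5 (0.297), Ntrk2 (0.299), Acsm3 (0.320), Cdo1 (0.320), Orm1 (0.325), Tmem45b (0.331) and Hp, the haemoglobin scavenger haptoglobin (0.333), came next.

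These 10 were chosen for their likeness to Adipoq, so that all 10 were lowest in sham replicate 1 and highest in adrenalectomized replicate 2 follows from the choice. Pck1 read 0.68, 2.91 and 1.98 in the sham hearts and 2.14, 4.13 and 4.11 in the adrenalectomized hearts, a difference of 1.60 (SE 0.71, limma adjusted p = 0.425). Hp read 1.64, 4.01 and 3.38 against 2.97, 4.92 and 3.84, a difference of 0.90 (SE 0.69, limma adjusted p = 0.629). The groups overlapped in all 10. Lgals12, Klb and Orm1 were well above background on 2 of 3 sham arrays only.

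Promoters are shown for the members that hold a match to the C/EBP-type motif TTNNGCAA or its reverse complement, since C/EBP factors are known regulators of fat cell genes and most members varied together. Each is the 250 bases before a RefSeq gene start on GRCm38.p6, written 5′ to 3′ on the gene strand, with the matches in capitals.
Lep, chr6:29059971-29060220, plus strand: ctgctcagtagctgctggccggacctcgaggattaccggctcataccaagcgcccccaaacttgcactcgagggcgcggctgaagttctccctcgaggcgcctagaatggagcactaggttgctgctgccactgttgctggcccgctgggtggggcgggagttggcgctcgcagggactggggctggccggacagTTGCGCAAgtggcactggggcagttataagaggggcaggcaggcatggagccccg
Plin1, chr7:79732777-79733026, minus strand: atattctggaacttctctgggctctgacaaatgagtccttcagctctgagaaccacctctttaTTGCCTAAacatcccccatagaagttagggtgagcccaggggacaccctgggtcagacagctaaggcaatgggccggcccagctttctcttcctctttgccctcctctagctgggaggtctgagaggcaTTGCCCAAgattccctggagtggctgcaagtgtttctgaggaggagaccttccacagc
Cidec, chr6:113434765-113435014, minus strand: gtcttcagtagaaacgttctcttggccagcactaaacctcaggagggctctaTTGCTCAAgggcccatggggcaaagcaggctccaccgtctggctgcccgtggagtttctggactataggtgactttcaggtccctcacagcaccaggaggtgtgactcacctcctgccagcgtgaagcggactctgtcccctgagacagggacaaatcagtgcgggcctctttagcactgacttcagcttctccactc

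Of the 9 members, 7 matched a promoter entry, with 9 windows between them. The C/EBP letters were in 3 of these 9 windows, each of a different gene, against 9.56% of 32851 promoter windows of the same length. Another window of Cidec held no such match and is not shown. The match of Lep starts 55 bases before the gene start, those of Plin1 187 and 58 bases before, and that of Cidec 198 bases before. The CCAAT letters, which are part of no match above, were found in 1 of 9 member windows (that of Adipoq, with 3 matches) and in 33.8% of all windows. The letters TATAAA and the PPAR half-site AGGTCA were in 0 of 9 member windows, against 7.59% and 14.0% of all windows. The C/EBP, CCAAT and AGGTCA letters were read on both strands, and TATAAA on the gene strand only. A match is a run of letters and was not tested for binding.

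Other fat genes were taken from lists that were drawn up with earlier results of these data known. Of 18 adipogenic factors and adipocyte markers tested, 13 were higher and 5 lower, with 0 past the limma adjusted threshold and 7 higher and 0 lower at an unadjusted p under 0.05. Over all genes 56.6% were above 0, and 6.27% were higher and 5.99% lower at that p. Their median difference was 0.39, and within slide 1 it was 0.12. Agpat2, an acyltransferase of triglyceride synthesis, had the smallest p. It read 0.60, 0.68 and 1.47 against 1.67, 2.98 and 2.40 without overlap, a difference of 1.43 (SE 0.37, limma adjusted p = 0.253). Thrsp, a regulator of lipogenesis, differed by 1.91 (SE 0.61, limma adjusted p = 0.311) with overlapping groups.

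Droplet coat and lipolysis partners numbered 18 tested, 14 higher and 4 lower, with a median difference of 0.13 and 5 higher and 0 lower at an unadjusted p under 0.05, to be read against the same shares of all genes. Dgat1, which makes triglyceride, differed by 0.67 (SE 0.18, limma adjusted p = 0.264), and Plin2, a droplet coat protein of many tissues, by 1.01 (SE 0.29, limma adjusted p = 0.285), both without overlap. Among 11 adipokine receptors and other secreted factors, 7 were higher and 4 lower with a median of 0.05, where 56.6% of all genes lay above 0. At an unadjusted p under 0.05, 3 were higher and 1 lower, against 6.27% and 5.99% of all genes. The chemerin receptor Cmklr1 differed by 0.45 (limma adjusted p = 0.207) and apelin, Apln, by 0.93 (limma adjusted p = 0.211), both without overlap. Angiotensinogen, Agt, which was named after its values were seen, had the largest difference of the list and lay lower, at -1.30 (SE 0.46, limma adjusted p = 0.354), also without overlap. Neither list held a gene past the adjusted threshold.

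Markers of other cells were read beside the members. Of 10 brown fat markers, 5 were higher and 5 lower (median difference 0.13), with 4 higher and 1 lower at an unadjusted p under 0.05. Of all genes, 56.6% lay above 0, 6.27% were higher at that p and 5.99% lower. Among the lower genes, Cox8b, Cox7a1 and Fabp3 stood between 7.98 and 9.70 on every array. Whether those signals came from brown fat or from heart muscle was not tested, so the split and the median are no plain reading of brown fat. Cidea, among the higher genes, is also counted in the list of droplet coat and lipolysis partners. Ucp1, the heat-producing carrier of brown fat, read 1.11, 3.21 and 3.82 in the sham hearts and 4.20, 6.42 and 6.16 in the adrenalectomized hearts. Its groups did not overlap, with a difference of 2.88 (SE 0.82, limma adjusted p = 0.274), and sham replicate 1 was lowest and adrenalectomized replicate 2 highest, as in the members. Elovl3, a fatty acid elongase of brown fat, was well above background on all adrenalectomized and on 0 of 3 sham arrays. The probe thus passed the filter through the adrenalectomized arrays only. Elovl3 read -3.16 on adrenalectomized array 1, on the slide of the sham arrays, and 0.83 and 0.65 on adrenalectomized arrays 2 and 3, on slide 2. The mean of the adrenalectomized arrays was at least 14.4-fold higher, as a bound set by the dimmest signal well above background. That bound rests mostly on arrays 2 and 3. The limma adjusted p of the fitted difference of Elovl3 was 0.202.

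The lists for heart muscle, vessel, macrophage, connective tissue, mesothelial and skeletal muscle cells had median differences below 0. The summed linear level of 11 cardiomyocyte markers with values on all arrays, in multiples of the 75th percentile signal and weighted to the brightest probes, ran from 4663 to 5473 in the sham hearts and from 4346 to 4858 in the adrenalectomized hearts. Their median difference was -0.13, with Tnni3 at -0.29 (limma adjusted p = 0.389) and Myl3 at -0.19 (limma adjusted p = 0.539). Endothelial markers had summed levels of 125 to 137 in sham and 123 to 140 in adrenalectomized hearts, with Tek at -0.26 (limma adjusted p = 0.449) and Robo4 at 0.27 (limma adjusted p = 0.525). Macrophage markers had a median difference of -0.10, fibroblast markers of -0.19, mesothelial markers of -0.04 and skeletal muscle markers of -0.22. In the skeletal muscle list Tnni2 differed by -1.15 without overlap (limma adjusted p = 0.197) and Actn3 by -0.39 (limma adjusted p = 0.383).

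Lymphocyte and blood genes differed between single hearts. Lymphocyte markers, 8 of 12 tested, had a median difference of 0.41, with Dntt at 0.86 (limma adjusted p = 0.365) and Cd3g at 0.33 (limma adjusted p = 0.366). The 3 erythroid markers tested had a median of 0.77, with Slc4a1 at 0.92 (limma adjusted p = 0.528) and Alas2 at 0.77 (limma adjusted p = 0.583), and were high in adrenalectomized replicates 1 and 2 and low in replicate 3, an order unlike that of the members. In the macrophage list Cd163 was at -0.35 (limma adjusted p = 0.501) and C1qc at -0.19 (limma adjusted p = 0.551). Col3a1 (-0.34, limma adjusted p = 0.348) and Dcn (-0.32, limma adjusted p = 0.401) had the smallest p of the fibroblast list, as had Lrrn4 (-0.56, limma adjusted p = 0.443) and Upk3b (-0.33, limma adjusted p = 0.506) of the mesothelial list. The part of cell makeup in the members' differences was not tested.

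**Figure D4:**
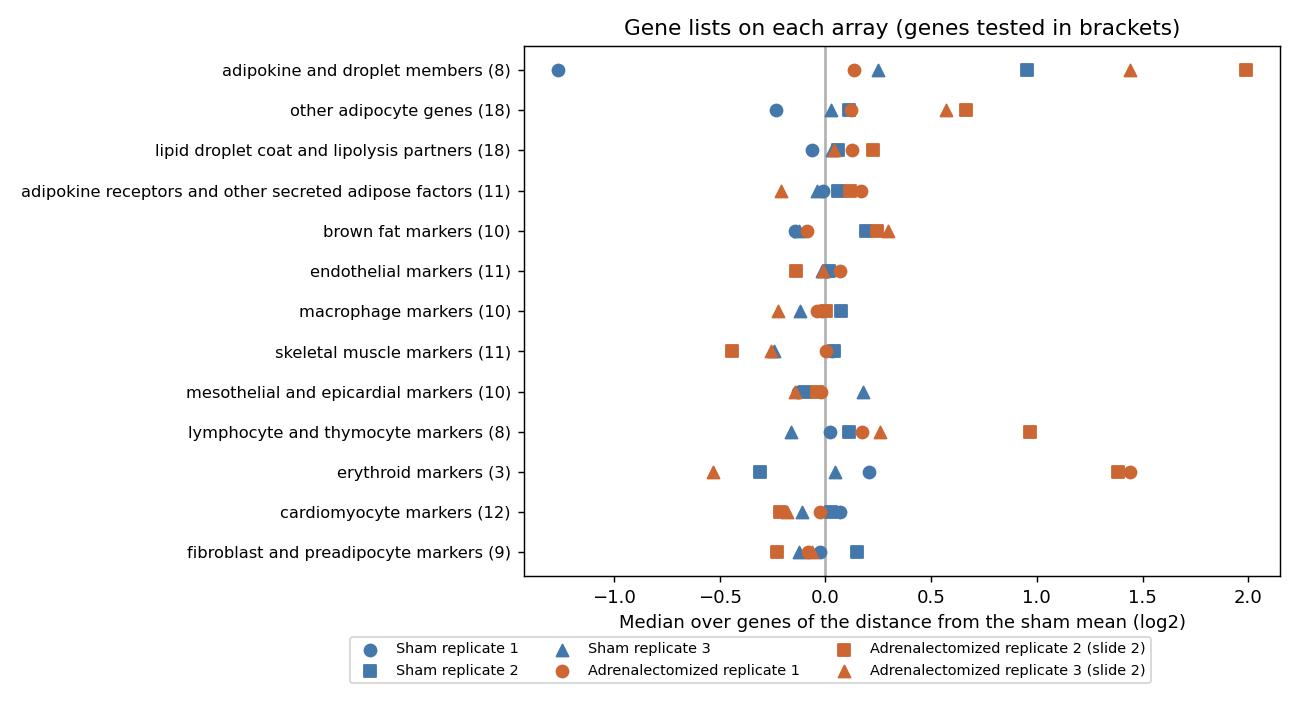
Median over the genes of a list of the distance from the sham mean (log2) on each array, for the 8 members tested and the 12 other lists, with sham arrays in blue, adrenalectomized arrays in orange, and replicates 1, 2 and 3 as circles, squares and triangles. The members run from -1.26 in sham replicate 1 to 1.99 in adrenalectomized replicate 2, and the other adipocyte genes from -0.23 to 0.67 over the same hearts, while lymphocyte markers run from -0.16 to 0.97, erythroid markers from -0.53 to 1.44 and endothelial markers from -0.14 to 0.07.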

How the data were processed

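Heart RNA of 6 mice was amplified with a whole-transcriptome kit, labelled with Cy3 and hybridised to 1-colour Agilent arrays, per the labels' protocols. Per the file headers, scans were read with Feature Extraction 9.5.3.1 (9.5 per the submitters' processing notes), and the deposited processed signal is a linear intensity with background removed and trends across the array corrected, but with no scaling between arrays. The value table deposited beside it was identical for all 45018 spots of each array, with medians of 70.8, 68.1 and 84.4 (sham) and 75.1, 92.2 and 80.9 (adrenalectomized), so it is linear and not centred.

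Signals were taken as log2 minus the 75th percentile of the array. Control spots were dropped, as were 80 to 133 outlier spots on each array, and spots of the same probe were averaged. A probe was tested when well above background on all 3 arrays of a group (23990 probes), and the tested probe of highest mean stood for its gene (16949 genes). Differences were fitted with limma 3.58.1 (lmFit, eBayes) in R 4.3.3, Benjamini-Hochberg adjusted, with a threshold of 0.05, and tested on simulated data. Single relations used exact permutation tests. Where a probe was below background in a whole group, the fold is a bound against the higher of the lowest signal well above background and its own signal. Of 41174 probes, 22951 (55.7%) were named through RefSeq. Replicates are separate mice, per the series design. The members and lists were chosen with earlier results of these data known. Besides the members and the genes nearest to Adipoq, from each list the 2 genes of smallest p were named. Beyond that rule, Myoz2 was named beside the tissue label and Agt after its values were seen. Cidea, Cox8b, Cox7a1 and Fabp3 were named to describe the brown fat list, also after the values were seen. Python 3.11.15, numpy 2.4.6, pandas 2.3.3 and matplotlib 3.10.9 read files and drew figures.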

Additional observations from a re-analysis of the deposited data

How the results depend on the processing

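Each of the 8 tested members was recomputed under 22 alternatives (176 fits). Apart from Car3 and Retn, every member kept a difference above 0 in all of them, and the members' median ran from 0.14 to 1.74. Car3 turned to -0.34 with the slide as a fixed block and with slide 1 alone (limma adjusted p = 0.928 in both), and Retn to -0.39 in the same settings (0.911 and 0.908) and to -0.22 with normexp (0.506). The 2 slide settings set adrenalectomized replicate 1 against the sham hearts, and that lone array is assumed to vary like them. The cause of the normexp reversal was not tested. Plin1 was past the threshold in 1 setting, normexp, at 1.94 (limma adjusted p = 0.0468).

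Leaving out each array in turn gave 0.71 to 1.99 for Adipoq, 0.07 to 1.30 for Car3, 0.64 to 2.09 for Cfd, 1.11 to 2.60 for Cidec, 0.16 to 0.42 for Fabp4, 0.44 to 0.92 for Lipe, 1.20 to 2.44 for Plin1, 0.36 to 1.58 for Retn and 0.58 to 1.74 for the median. Lep was tested in 3 alternatives and stayed untested in the others. Relative to Adipoq, the quantile and normexp settings, chosen after seeing the data, left Plin1 and Cidec higher and Car3 lower without overlap. The other Car3 probe, also chosen then, gave -0.43, a value that includes its signal on sham array 1, which was not well above background. It did not overlap either, by a small margin between sham replicate 3 (-4.65) and adrenalectomized replicate 3 (-4.75).

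Genes with a limma adjusted p under 0.05 numbered 5 higher and 2 lower (1063 and 1016 at an unadjusted p under 0.05). Higher genes numbered 3 with median centring, 2 with quantile normalization, 1220 with normexp, 41 with slide 1 alone and 38 with array weights. They numbered 0 with the 75th percentile over detected probes (946 unadjusted), probes above background on all 6 arrays (880), no filter on dim probes (1124), the mean of probes (1097), every probe tested (1465), outlier spots kept (1057) and the slide as a fixed block (879). Lower genes numbered 4 with median centring, 4731 with normexp, 7 with a variance trend and robust fit, 37 with array weights, and 1 each with probes above background on all 6 arrays, with no filter, with every probe tested and with the slide as a fixed block. Leaving out arrays gave 0 to 39 higher (775 unadjusted without sham replicate 1, 967 without sham replicate 3, 857 without adrenalectomized replicate 2) and 1 to 6 lower.

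With the replicate number as a block 0 genes were higher (1043 unadjusted) and 1 lower. Over all genes, same-numbered hearts deviated together at r = 0.16, 0.16 and -0.16 for numbers 1, 2 and 3. Not every heart matched its own number best, and the labels only number the mice. Several members followed the number more closely. With the block the SE fell from 0.71 to 0.12 for Adipoq, from 0.68 to 0.12 for Plin1 and from 0.82 to 0.12 for Cidec. For Fabp4 it went from 0.17 to 0.15 only. Whether the numbers pair the hearts was not tested further. The block changed no member's call (Plin1 1.79 and Cidec 1.90, limma adjusted p = 0.094 for both). Signal over background limits Lep, and the second probes of Retn and Car3 on sham array 1.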
